A study of Mus musculus with 64 samples.

Results

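Mature microRNAs of red blood cells were followed in liver and gonadal fat of arsenic-exposed mice. The set held every unshifted feature of the miR-486, miR-3107, miR-144 and miR-451 genes in the small RNA tables, by a rule that uses their names and no measured value. It counted 7 features (mmu-mir-486-5p, mmu-mir-486-3p, mmu-mir-3107-5p, mmu-mir-3107-3p, mmu-mir-144-5p, mmu-mir-144-3p and mmu-mir-451, written as miR-486-5p and so on below) of 1941 in the liver table and of 2173 in the adipose table, where 702 and 740 features were unshifted. A shifted feature is a mature form whose start is displaced from the annotated start, by a signed offset given in its name. The same microRNAs had 20 such forms in liver and 25 in adipose tissue.

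The mice were 129S6/SvEvTac animals of both sexes. Wild-type (WT) mice carried the mouse version of AS3MT, the enzyme that methylates arsenic, and humanized mice expressed the human ortholog in its place. All 4 groups, the WT controls included, drank water with 400 ppb inorganic arsenic for 4 weeks, so no library came from an unexposed mouse. The labels give no age for the mice. Liver small RNA libraries numbered 5 from WT females, 5 from humanized females, 5 from WT males and 6 from humanized males, and those of gonadal fat 5, 6, 4 and 5 in the same order, which makes 41. Messenger RNA libraries numbered 3 in each group and tissue, apart from WT male fat with 2. The labels do not tie a messenger RNA library to a small RNA library.

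These microRNAs belong to the red cell lineage. MiR-144 and miR-451 are cut from a common transcript that the erythroid factor GATA1 switches on, and miR-451 matures without Dicer because Argonaute 2 cuts its short hairpin itself. MiR-486 lies inside Ank1, the gene of the red cell membrane protein ankyrin-1, and is also made in muscle. Circulating red cells have no nucleus but keep these microRNAs, together with globin messenger RNA. A tissue sample that holds blood therefore holds them too. In bulk tissue, fewer cells of a type and less RNA per cell cannot be told apart.

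The sequences show what was counted and how the members relate. RefSeq entries (build GRCm38.p6) were matched for 3 of the 7 members, and their seeds, bases 2 to 8 counted from the 5′ end and the part that pairs with target messages, are in capitals.
miR-144-3p: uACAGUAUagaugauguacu
miR-144-5p: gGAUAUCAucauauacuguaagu
miR-451a: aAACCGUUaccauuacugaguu
No other mature mouse microRNA in the table had any of these seeds. The 3 members thus share no seed, and whether their possible targets overlap was not examined. The seeds printed are those of the unshifted forms.

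The hairpins of these members are neighbours on the plus strand of chromosome 11. Mir144 spans chr11:78073005-78073070 and Mir451a spans chr11:78073170-78073241, with 99 bases between them. They are printed with the mature parts in capitals.
Mir144: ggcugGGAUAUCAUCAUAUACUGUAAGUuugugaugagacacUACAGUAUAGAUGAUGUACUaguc
Mir451a: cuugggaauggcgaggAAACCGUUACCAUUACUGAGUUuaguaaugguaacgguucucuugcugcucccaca
Mir144 carries a mature form on each arm, at positions 6 to 28 and 43 to 62. The mature part of Mir451a runs from position 17 to 38, past the midpoint of the hairpin at position 36. In the RefSeq gene table Mir3107 lies inside Mir486, and Mir486 inside Ank1. The values of miR-486-5p exceeded those of miR-3107-5p by 0.0208% to 0.454% in the liver libraries and by 0.0466% to 0.224% in the adipose libraries, so these 2 features were treated as 1 measurement. Counts of members or features that were tested or passed still count both of these twins.

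The reads listed per library ranged from 5819451 to 16647090 in liver and from 10772191 to 34352654 in adipose tissue, and no library repeated another. Features with fewer than 10 reads in a library are listed at 0. Values below are normalized signal, the authors' counts divided by a factor per library, and the tissues were normalized separately. Library names take 2 forms (tag first or group first), which the labels do not explain. Mouse As3mt checked the genotype labels: its signal was 2624 to 6111 in WT liver and at most 5.98 in humanized liver, and 1218 to 1737 against at most 5.33 in fat. Alb, a hepatocyte gene, had a signal of 3970061 to 8590177 in liver, and Adipoq, an adipocyte gene, reached 7.04 at most in liver and 116720 to 325520 in fat.

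MiR-486-5p was the most abundant member in both tissues. Its median signal was 11700 in liver (lowest 4655, highest 31925) and 49364 in adipose tissue (lowest 21196, highest 336754). Ranked by mean signal it was number 44 of the 702 unshifted features in liver and number 36 of the 740 in fat. As a share of the summed signal of a library, its median was 0.0943% in liver and 0.301% in fat.

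MiR-451 came next, with a median signal of 3349 in liver (lowest 1842, highest 12181) and 23555 in fat (lowest 8636, highest 169843). The arms of miR-144 were less abundant. MiR-144-5p had a median of 854 in liver and 5880 in fat, and miR-144-3p of 604 in liver and 5488 in fat. Within each tissue the ranges of these arms overlapped almost fully. The passenger arm miR-486-3p had a median of 130 in liver and 587 in fat. MiR-3107-3p was rarest: it had a signal of 11.8 to 228.3 in fat, and in liver it was above 0 in 1 library only, WT male replicate 1, at 12.6. It therefore stayed below the minimum mean of 10 in liver, where 6 of the 7 members were tested among 837 features. In fat all 7 were tested among 1298.

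**Figure D1:**
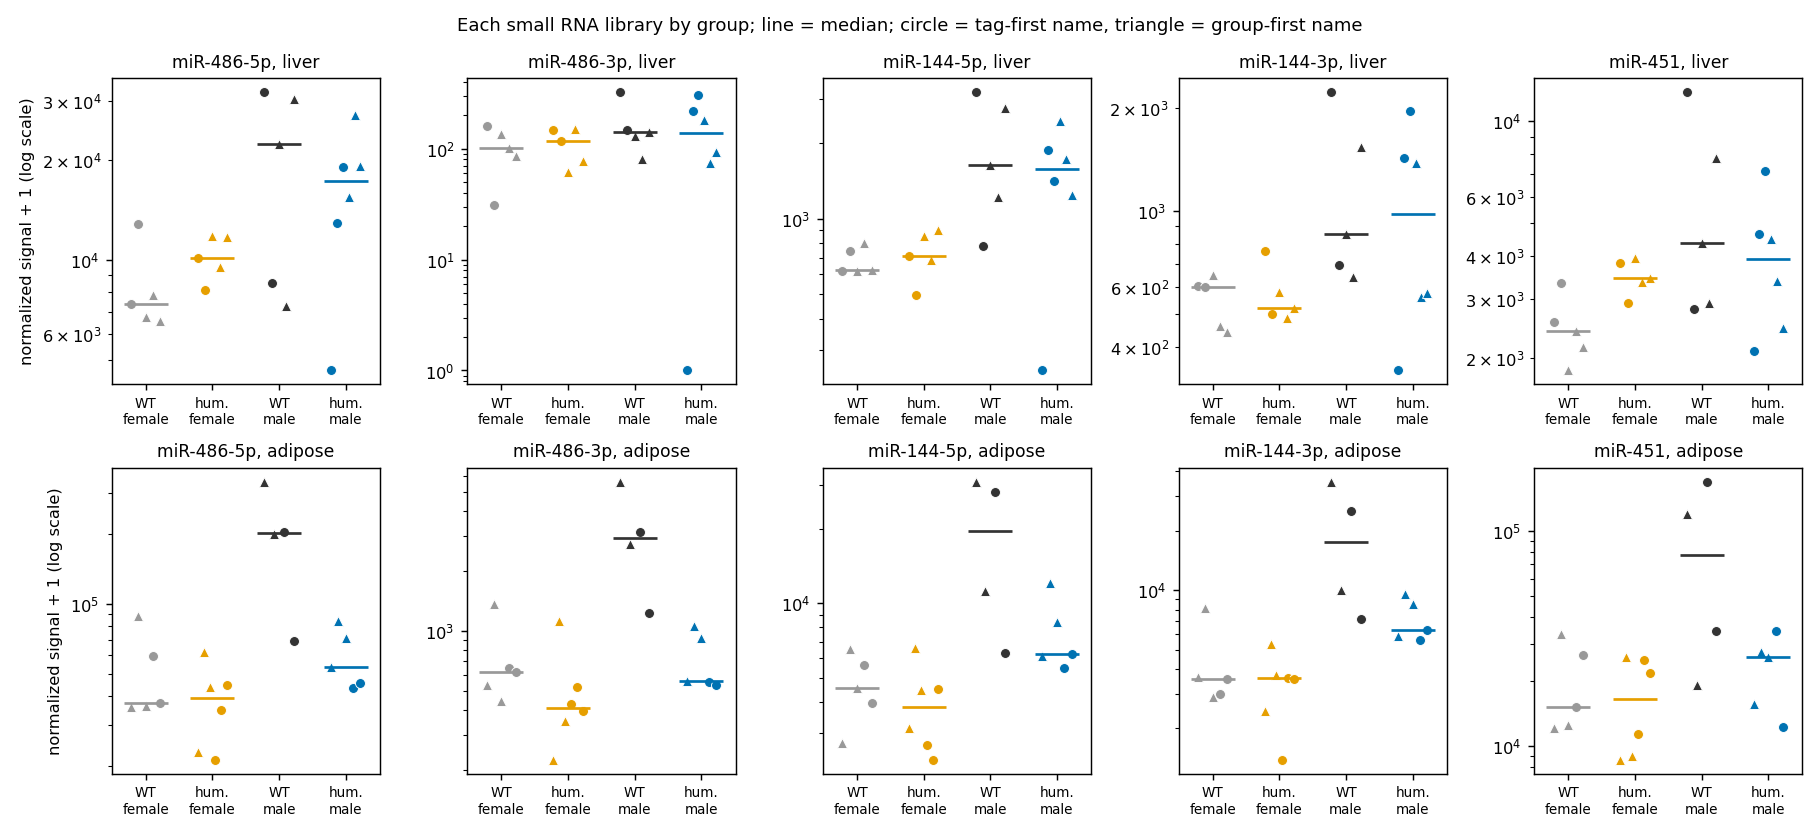
Normalized signal plus 1 (log axis) of miR-486-5p, miR-486-3p, miR-144-3p, miR-144-5p and miR-451 in each small RNA library of liver and adipose tissue, by group; lines are group medians, circles are libraries named tag first and triangles those named group first. In adipose tissue the WT male libraries hold the highest value of each member, for miR-486-5p 336754, and their miR-451 runs from 19337 to 169843.

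Genotype was compared first in male fat, where miR-486-5p and miR-486-3p were lower in humanized than in WT males and the other separately measured members did not pass the test. The signal of miR-486-5p was 336754, 199323, 204380 and 69218 in WT males (replicates 6, 9, 11 and 12). In humanized males it was 53376, 84187, 71061, 43081 and 45353 (replicates 7, 8, 9, 10 and 13). WT replicates 6, 9 and 11 were thus above all humanized libraries, and WT replicate 12 lay within their range. The means were 202419 ± 109243 (SD, n = 4) and 59411 ± 17680 (SD, n = 5).

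MiR-486-3p separated the same groups without overlap. Its signal was 5604, 2720, 3134 and 1222 in WT males, and 557, 1055, 913, 551 and 534 in humanized males. The lowest WT library was again replicate 12, and it stood just above the highest humanized library. MiR-3107-3p ran from 49.3 to 228.3 in WT males and from 23.9 to 45.2 in humanized males, also without overlap. Of all features tested in fat, 2.31% were lower in every humanized male than in every WT male.

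On the log2 scale (signal plus 1), limma gave a difference of -1.66 (SE 0.37, 95% interval -2.44 to -0.88, adjusted p = 0.0487) for miR-486-5p, which is 3.16-fold lower in humanized males. MiR-486-3p differed by -2.04 (95% interval -2.93 to -1.14, adjusted p = 0.0487), or 4.10-fold lower. MiR-3107-3p differed by -1.68 and missed the threshold with an adjusted p of 0.0506 from limma. Over all 1298 features 8 passed, which is 0.616%, and 7 of them were lower (0.539%). Members made up 3 of these 8 features, being miR-486-5p, its twin miR-3107-5p and miR-486-3p, so 2 measurements. The unadjusted p was under 0.05 for 199 features (15.3%).

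These calls stood close to the threshold. MiR-486-5p and miR-486-3p kept them with a pseudocount of 10 (adjusted p = 0.0389 from limma for each), among features with a mean of at least 100 (0.0284) and in the authors' batch-corrected log2 values (0.0211, where miR-486-5p differed by -1.28). None of the members passed with library name form left out of the model (adjusted p = 0.116 from limma for miR-486-5p), with values rescaled to a common sum (0.0695) or by trimmed means (0.0509), or within the libraries of either name form alone. Within the forms miR-486-5p differed by -1.43 (tag first) and by -1.92 (group first). None passed either without any of WT male replicates 6, 9 or 11, any of the 5 humanized males, WT female replicates 6, 10 or 11, or humanized female replicates 8 or 9. Without WT male replicate 12, in contrast, 5 features of the set passed. Over all such omissions the miR-486-5p difference stayed between -2.04 and -1.40, with adjusted p from 0.00551 to 0.183.

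The microRNAs of the chromosome 11 cluster had differences of the same sign that did not pass. MiR-144-3p had a signal of 35497, 9992, 25152 and 7138 in WT males and of 5847, 9593, 8516, 5618 and 6315 in humanized males. WT replicates 6 and 11 were far above the rest, and replicates 9 and 12 were near or within the humanized range. The difference was -1.23 (95% interval -2.10 to -0.35, adjusted p = 0.154 from limma). MiR-144-5p differed by -1.14 (adjusted p = 0.167 from limma), with WT values from 6301 to 30934 and humanized values from 5496 to 12078.

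MiR-451 had the largest spread among WT males. Its signal was 120633, 19337, 169843 and 34191 there, and 15767, 27302, 26087, 34164 and 12261 in humanized males. WT replicates 6 and 11 were high, while replicate 9, which was high for miR-486-5p, fell within the humanized range. The difference was -1.46 (95% interval -2.62 to -0.30, adjusted p = 0.200 from limma).

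**Figure D2:**
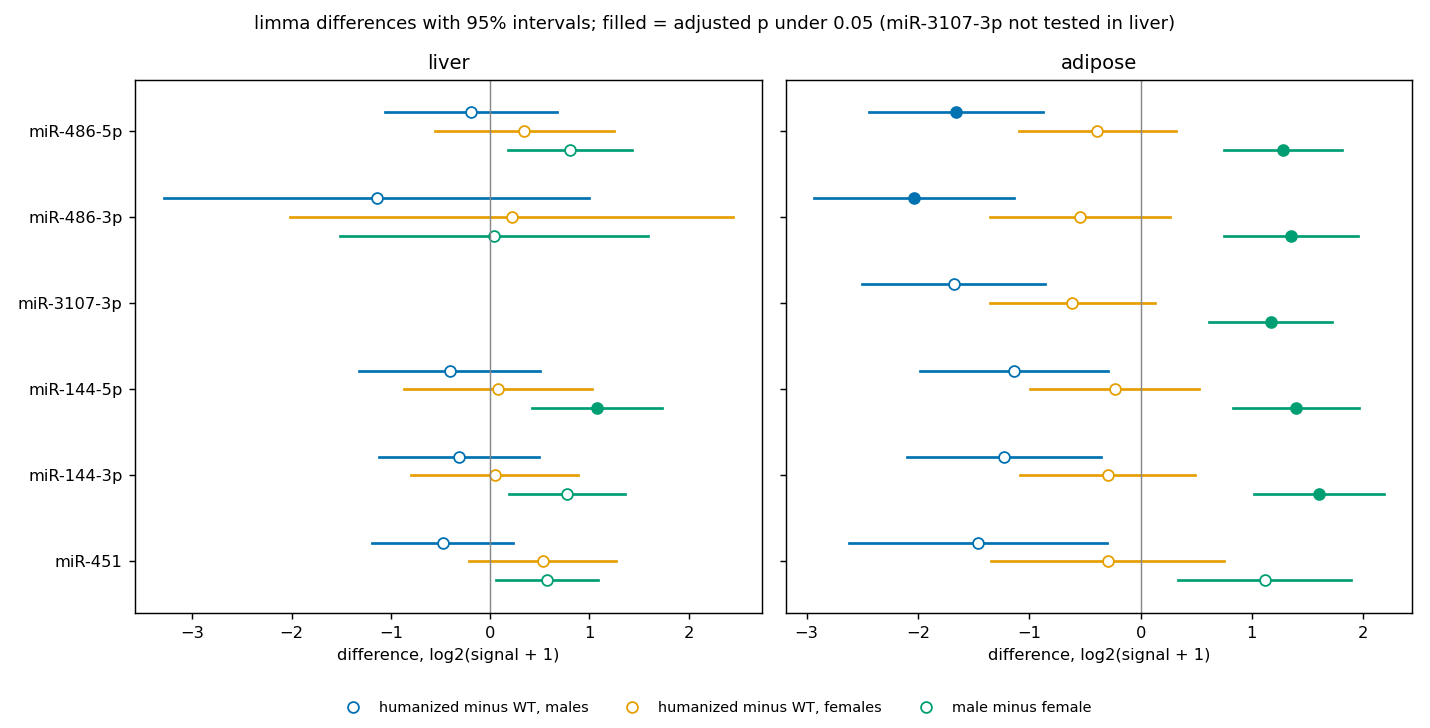
Differences on the log2(signal + 1) scale from limma for each member, humanized minus WT in males and in females and male minus female, with 95% intervals; filled symbols passed an adjusted p of 0.05, and miR-3107-3p was not tested in liver. In adipose males miR-486-5p lies at -1.66 and miR-486-3p at -2.04, whereas the liver genotype intervals all include 0.

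Other RNAs moved with this comparison in male fat, and their part in the result was not tested. MiR-122-5p, the main hepatocyte microRNA, had a signal of 133717 to 683904 in WT males and of 46774 to 123944 in humanized males, without overlap. The fixed hepatocyte microRNAs (3 tested of 4) had a median difference of -1.17 with none higher, and none passed. That median was -1.78 in tag-first and -0.65 in group-first libraries, and -0.76 without WT male replicate 11, and with values rescaled to a common sum 1 of the 3 was higher. Their summed signal was 278897 to 1050733 in WT males and 166141 to 314985 in humanized males.

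The remaining lists of microRNAs had medians between -0.18 and 0.16, beside 0.04 for all features. Other microRNAs that red cells hold (10 tested of 13) had a median difference of -0.18, with 2 higher and none called, and miR-25-3p lay at -0.64. Matched by exact name, this list did not count miR-92a-2-3p, a numbered form of the listed miR-92a-3p. That form had a mean signal of 2950 in fat, and its difference is not part of the median. Platelet and myeloid microRNAs (7 tested) had a median of 0.16, muscle microRNAs (3 tested of 6) of -0.02 and adipocyte microRNAs (3 tested of 4) of 0.11. The muscle list, matched by exact name too, would not count numbered forms of miR-1a such as those found in liver. MiR-23a-3p, used as a reference in tests of hemolysis because red cells hold little of it, differed by 0.05.

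Red cell messenger RNA in fat was measured in other libraries of the same groups. Of 26 listed red cell genes 18 were tested, and their median difference in humanized against WT males was -1.96, beside 0.01 for all genes. Higher in humanized males were 4 of the 18, and none passed in limma, where 3 of 17394 genes (0.0172%) did. The summed signal of the list was 425740 and 2173614 in the WT male libraries and 123658 to 314019 in the humanized males. It was 75195 to 137062 in WT females and 64618 to 369698 in humanized females.

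The globin genes, which encode the chains of hemoglobin, followed that order. Hba-a1 had a signal of 105913 and 535279 in WT males and of 30476, 118138 and 80952 in humanized males. WT male replicate 5 was far above all other libraries, and replicate 4 lay within the humanized range for Hba-a1. For the other globin genes replicate 4 was above all humanized males, with 124299 against at most 86985 for Hba-a2, 160010 against 118936 for Hbb-bs and 24576 against 18631 for Hbb-bt. The differences were -1.84 for Hba-a1 (adjusted p = 0.642 from limma), -2.37 for Hba-a2 (0.458), -2.07 for Hbb-bs (0.528) and -2.16 for Hbb-bt (0.578). Hba-a1 and Hba-a2 are near-identical copies, as are Hbb-bs and Hbb-bt, so the split of reads within each pair is uncertain.

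Alas2, the first enzyme of heme synthesis in red cell precursors, had a signal of 4994 and 24992 in WT males and of 1136 to 3275 in humanized males, a difference of -2.33 (adjusted p = 0.531 from limma). Slc4a1, the anion exchanger of the red cell membrane, differed by -2.58 (adjusted p = 0.642 from limma). WT male messenger RNA replicate 5 also held most hepatocyte RNA: its Alb signal was 129200, against 1021 in replicate 4 and 598 to 8174 in humanized males. The 6 hepatocyte genes had a median difference of -2.22 with none higher, but without replicate 5 it turned to 1.90 with 5 of the 6 higher. It was -6.36 without replicate 4 and -1.22 without humanized male replicate 4. Without replicate 5 the median difference of the red cell genes was -0.84, and without replicate 4 it was -2.70.

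**Figure D3:**
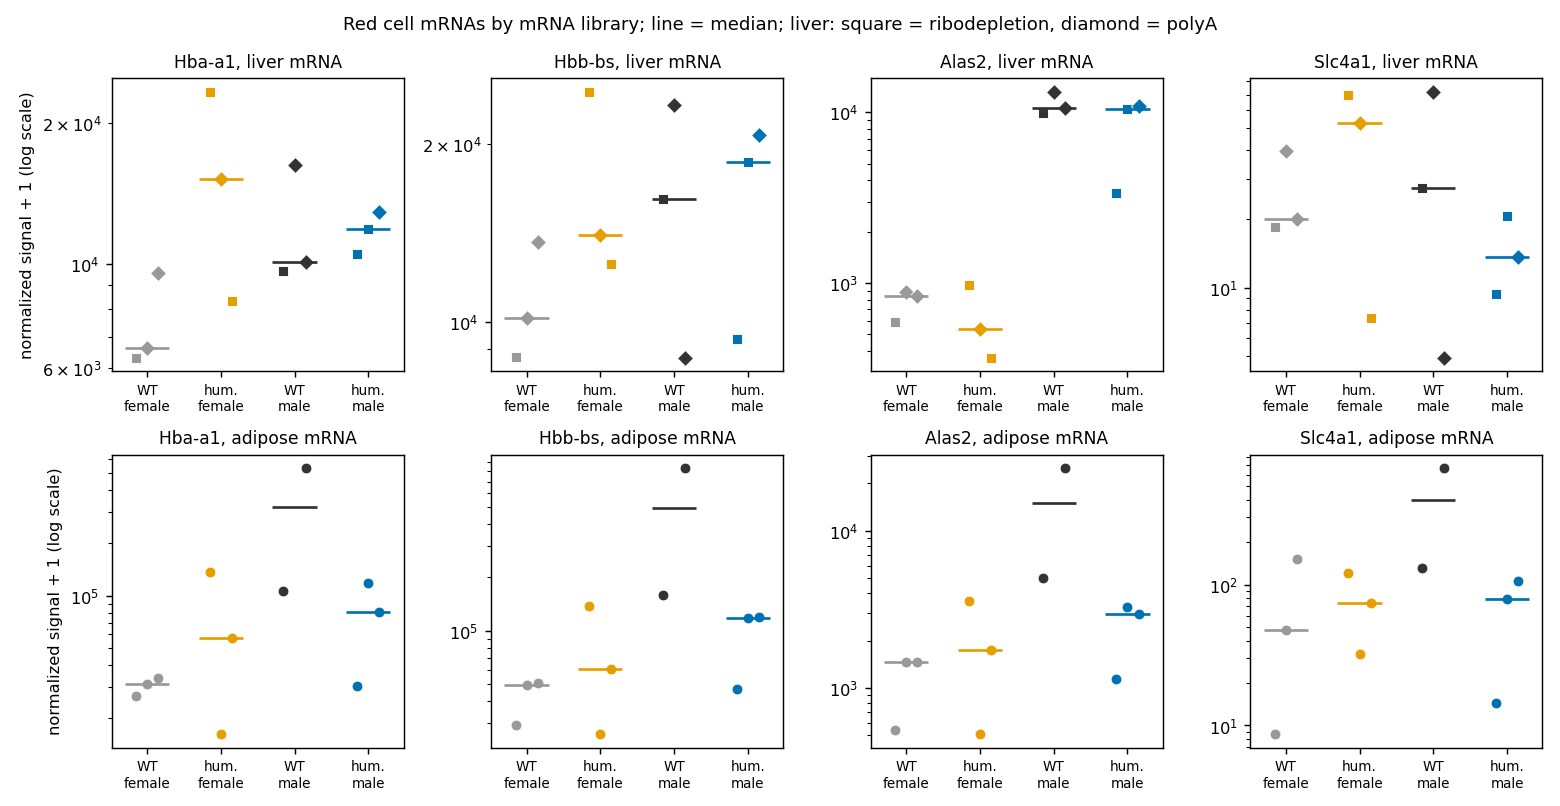
Normalized signal plus 1 (log axis) of the red cell genes Hba-a1, Hbb-bs, Alas2 and Slc4a1 in each messenger RNA library of liver and adipose tissue, by group; squares are ribodepletion and diamonds polyA libraries of liver. In fat the highest library of each gene is a WT male one (Hba-a1 at 535279), and in liver Alas2 is higher in males (3353 to 13223) than in females (362 to 970).

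In female fat no member passed between the genotypes. The differences of humanized minus WT females ran from -0.61 for miR-3107-3p to -0.23 for miR-144-5p, each with an adjusted p of 0.998 from limma. MiR-486-5p was 35974, 88809, 36274, 59251 and 37459 in WT females, and 21196 to 62055 with a median of 39091 in humanized females. The groups overlapped over most of their range, and the interval of the difference was -1.09 to 0.32. No feature of the 1298 passed (0%), and 32 had an unadjusted p under 0.05 (2.47%).

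Over both sexes, miR-486-5p differed by -1.02 (95% interval -1.55 to -0.50) and miR-486-3p by -1.29 (95% interval -1.89 to -0.69), each with an adjusted p of 0.115 from limma. No feature of the 1298 passed (0%), and 180 had an unadjusted p under 0.05 (13.9%). Without WT male replicate 12, 4 features of the set passed. The difference between the sexes in the genotype effect (males minus females) was -1.27 (95% interval -2.33 to -0.22) for miR-486-5p, with an adjusted p of 0.860 from limma. For the other members it lay between -1.49 and -0.90. None of the 1298 features passed that test (0%), and 63 had an unadjusted p under 0.05 (4.85%). A genotype difference particular to males was therefore not shown.

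Most members were higher in male than in female fat. The male minus female difference over both genotypes was 1.60 (95% interval 1.01 to 2.19, adjusted p = 0.00157 from limma) for miR-144-3p, or 3.03-fold. It was 1.40 (adjusted p = 0.00364 from limma) for miR-144-5p, 1.28 (0.00364) for miR-486-5p, 1.35 (0.00626) for miR-486-3p and 1.17 (0.00887) for miR-3107-3p. MiR-451 differed by 1.12 (95% interval 0.34 to 1.89) and missed the threshold with an adjusted p of 0.0657 from limma. Of the 7 features, 6 passed, with the twins miR-486-5p and miR-3107-5p counted separately, and all 6 were higher in males. Over all 1298 features 10% passed, and 4.31% passed with higher values in males. This comparison uses the same WT male libraries as the genotype comparison in males.

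The ranges of all males and all females overlapped for each member, although some single groups did not. MiR-144-3p was 2898 to 8138 in WT females (median 3561), 1386 to 5359 in humanized females (median 3582), 7138 to 35497 in WT males and 5618 to 9593 in humanized males. Both male groups thus lay above all humanized females and overlapped with WT females. Within name forms the miR-144-3p difference was 1.61 (tag first) and 1.59 (group first), and that of miR-486-5p was 0.90 and 1.60. With the smaller number of libraries, no member passed within either form.

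MiR-122-5p was also higher in male fat, by 1.04 (adjusted p = 0.0292 from limma), and whether that bears on the members was not tested. Among the other red cell microRNAs, 7 of 10 were higher in males, with a median of 0.31. MiR-25-3p (0.47), miR-15b-5p (0.52) and miR-93-5p (0.43) passed as higher. MiR-182-5p (-1.39) and miR-183-5p (-1.14), cut from 1 common precursor transcript, passed as lower. The red cell genes had a median male minus female difference of 1.14, with 15 of 18 higher and none called, where 73 of 17394 genes passed (0.42%).

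In liver no member differed between genotypes past the threshold. In males the differences of humanized minus WT were -0.19 for miR-486-5p (95% interval -1.06 to 0.67), -0.31 for miR-144-3p, -0.41 for miR-144-5p, -0.48 for miR-451 (95% interval -1.19 to 0.23) and -1.14 for miR-486-3p (95% interval -3.29 to 1.00). MiR-486-3p was listed at 0 in humanized male replicate 1, and its medians were 141 in WT and 137 in humanized males. With 1 library left out at a time, its difference ran from -1.61 to 0.046. Replicate 1 also enters its difference over both sexes below. None of the 837 features passed in limma (0%), and 46 had an unadjusted p under 0.05 (5.5%). In females they were 0.34 for miR-486-5p, 0.53 for miR-451 and 0.05 to 0.22 for the others, with none of 837 called (0%) and 25 at an unadjusted p under 0.05 (2.99%). Over both sexes they lay between -0.46 for miR-486-3p and 0.08 for miR-486-5p, again with none of 837 called (0%) and 26 at an unadjusted p under 0.05 (3.11%). None passed as differing between the sexes in the genotype effect (0%), where 25 had an unadjusted p under 0.05 (2.99%). For miR-451 that difference was -1.01 (95% interval -2.03 to 0.02, adjusted p = 0.965 from limma).

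The spread within male liver was wide. MiR-486-5p had a signal of 31925, 8532, 22268, 7281 and 30577 in WT males (replicates 1 to 5). In humanized males the lowest was 4655, the median 17266 and the highest 27273. WT replicates 2 and 4 lay in the female range, which ran from 6547 to 12825, and humanized replicate 1 was the lowest liver library. That library was also lowest of all livers for miR-486-3p, at 0, and for both arms of miR-144. Its miR-451 signal of 2103 was the lowest among males.

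MiR-144-5p was the 1 member that passed between the sexes in liver. Its signal was 618, 745, 621, 801 and 623 in WT females and 709, 495, 854, 686 and 901 in humanized females. In WT males it was 3195, 778, 1644, 1216 and 2766, and in humanized males the lowest was 247, the median 1575 and the highest 2465. All but 2 of the 11 male libraries, WT replicate 2 and humanized replicate 1, exceeded all 10 female libraries. The male minus female difference was 1.08 (95% interval 0.42 to 1.73, adjusted p = 0.0373 from limma), or 2.11-fold, and was 0.89 (tag first) and 1.25 (group first) within name forms.

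Of all 837 liver features 9.2% passed between the sexes, and 5.14% with higher values in males. MiR-486-5p (0.80, adjusted p = 0.0972), miR-144-3p (0.77, 0.0910) and miR-451 (0.57, 0.162) were short of the threshold in limma, and miR-486-3p differed by 0.04 (0.980). The call for miR-144-5p was lost with name form left out of the model, within tag-first libraries, and without any 1 of 16 of the 21 libraries, over which its adjusted p reached 0.0765. It held without WT female replicate 2, humanized female replicate 5, WT male replicates 2 or 4, or humanized male replicate 1. Without humanized male replicate 1, 4 features of the set passed, and without WT female replicate 2 or WT male replicate 4, 3 did.

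Red cell messenger RNA in liver was measured in other libraries of the same groups. The summed signal of the listed genes had a median of 28356 in WT females and 40762 in humanized females. In males the medians were 52595 (WT) and 59350 (humanized), and the ranges of males and females overlapped. Of the 26 listed genes 13 were tested. Between the genotypes in males their median difference was 0.07 and none passed, where 5 of 15180 genes did (0.0329%). Between the sexes 1456 of 15180 genes passed (9.59%). The globin genes differed by 0.16 to 0.29 and did not pass. Alas2 was 13.6-fold higher in males than in females, a difference of 3.77 (adjusted p = 4.16e-05 from limma), with a signal of 362 to 970 in females and 3353 to 13223 in males, without overlap. Sptb, a spectrin of the membrane skeleton, was lower in males by 1.30 on the log2 scale and Tal1, a transcription factor of blood cell precursors, by 0.69 (adjusted p = 0.00159 and 0.0428 from limma). Whichever 1 of the 12 libraries was left out, 2 red cell genes passed. Alas2 was always among them (adjusted p at most 0.000309 from limma), so Sptb and Tal1 did not both keep their calls in any omission.

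Ratios between members were compared within libraries, since they do not depend on the scaling. MiR-486-5p exceeded miR-451 by a median of 3.04-fold in liver (2.21 to 8.05) and 2.69-fold in fat (1.20 to 10.3). The widest ratio, 10.3, was that of WT male replicate 9 in fat, where miR-486-5p was high and miR-451 low. In fat the median was 1.86 in libraries named tag first and 2.88 in those named group first. In liver it was 2.77 and 3.41, so it was lower in tag-first libraries in both tissues.

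The arms of miR-144 were nearly equal in fat, with a median ratio of 5p to 3p of 1.11 in tag-first and 1.12 in group-first libraries. In liver that ratio was 1.02 in tag-first and 1.77 in group-first libraries. MiR-451 exceeded miR-144-3p, cut from the same transcript, by a median of 5.09-fold in liver and 4.23-fold in fat. In fat that median was 6.14 in tag-first and 3.31 in group-first libraries, and in liver 5.04 and 5.10. MiR-486-3p amounted to a median of 1.18% of miR-486-5p in liver and 1.32% in fat. MiR-486-5p thus made up nearly all of the miR-486 in these libraries.

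Shifted forms took different shares of each member. For miR-144-5p they made up a median of 9.62% of the signal in liver and 10.9% in fat, and for miR-144-3p 8.01% and 7.58%. For miR-486-5p the share was 0.714% and 0.767%. For miR-451 it was 0% in liver and 0.270% in fat. Each shifted form with fewer than 10 reads in a library is listed at 0, so 0% does not show that such forms were absent. Among the members named so far the order was alike in the tissues, with the largest median shares in the miR-144 arms. It did not hold for miR-486-3p, whose median share was 0% in liver and 1.21% in fat. The rare miR-3107-3p had a median of 0% in both tissues, and 13.4% at most in fat.

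Members were related to each other across libraries, on the log2(signal + 1) scale. In all 15 relations were computed, 6 within each tissue and 3 between tissues. The p-values come from 100000 permutations, whose smallest value is 1e-05, or from exact enumeration with fewer than 10 libraries. The groups were pooled, and values were permuted freely across them. Differences between groups and sexes therefore enter each r and p-value, within and between tissues. Over the 21 liver libraries, miR-486-5p and miR-451 had a Pearson r of 0.79 (raw permutation p = 2e-05, adjusted p = 3.75e-05) and a Spearman rho of 0.81 (adjusted permutation p = 0.00015). Without the 2 libraries farthest from the median of miR-486-5p, r was 0.67. It was 0.97 within tag-first and 0.73 within group-first libraries. With the means of group and name form removed, r was 0.80 over the 21 liver libraries, given without a test. Members of separate genes thus rose and fell in the same livers.

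In liver miR-486-5p and miR-144-5p had r = 0.87 (adjusted permutation p = 3.75e-05) and rho = 0.85, with r = 0.93 in tag-first and 0.83 in group-first libraries. MiR-144-3p and miR-451, of the same transcript, had r = 0.87 (adjusted permutation p = 2.5e-05) and rho = 0.72, with r = 0.94 and 0.75 within these forms. The arms of miR-144 had r = 0.81 (adjusted permutation p = 2.5e-05) and rho = 0.66, with 0.95 and 0.84 within forms. For miR-486-5p and miR-144-3p, r was 0.69 (adjusted permutation p = 0.000955) and rho 0.61, with 0.92 in tag-first and 0.58 in group-first libraries and 0.53 without the farthest 2. The arms of miR-486 had the lowest r among these pairs in liver: it was 0.45 (raw permutation p = 0.0294, adjusted permutation p = 0.0315), rho 0.30 (adjusted permutation p = 0.193), and r 0.41 without the farthest 2, 0.66 within tag-first and 0.13 within group-first libraries. MiR-486-3p had a median of 130 in liver, the lowest among the tested members. Humanized male replicate 1, a tag-first library, was lowest for both arms of miR-486, with miR-486-3p at 0. It was not among the farthest 2, so it enters each of these values but the group-first one.

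In the 20 adipose libraries miR-486-5p was related to miR-486-3p with r = 0.95 and rho = 0.89, to miR-144-3p with r = 0.93 and rho = 0.89, and to miR-144-5p with r = 0.93 and rho = 0.95. Without the 4 WT male libraries, which reached the highest values, r was 0.84, 0.87 and 0.85. Without the farthest 2 libraries it was 0.91, 0.85 and 0.86. Within name forms it was 0.92, 0.92 and 0.95 (tag first) and 0.98, 0.95 and 0.93 (group first). The adjusted permutation p of r was 2.5e-05 for each of these pairs, from the smallest raw value that the permutations can give. The arms of miR-144 had r = 0.93 and rho = 0.87 in fat, with the same adjusted permutation p, and r = 0.90 and 0.96 within forms. For miR-451 the relation to miR-486-5p had r = 0.77 (raw permutation p = 0.00031, adjusted p = 0.000465) and rho = 0.67, and r was 0.49 without the farthest 2 and 0.61 without WT males. Within name forms it was 0.84 (tag first) and 0.85 (group first). MiR-144-3p and miR-451 had r = 0.83 (adjusted permutation p = 6.67e-05) and rho = 0.67, with r = 0.61 without WT males, and 0.86 and 0.94 within forms.

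**Figure D4:**
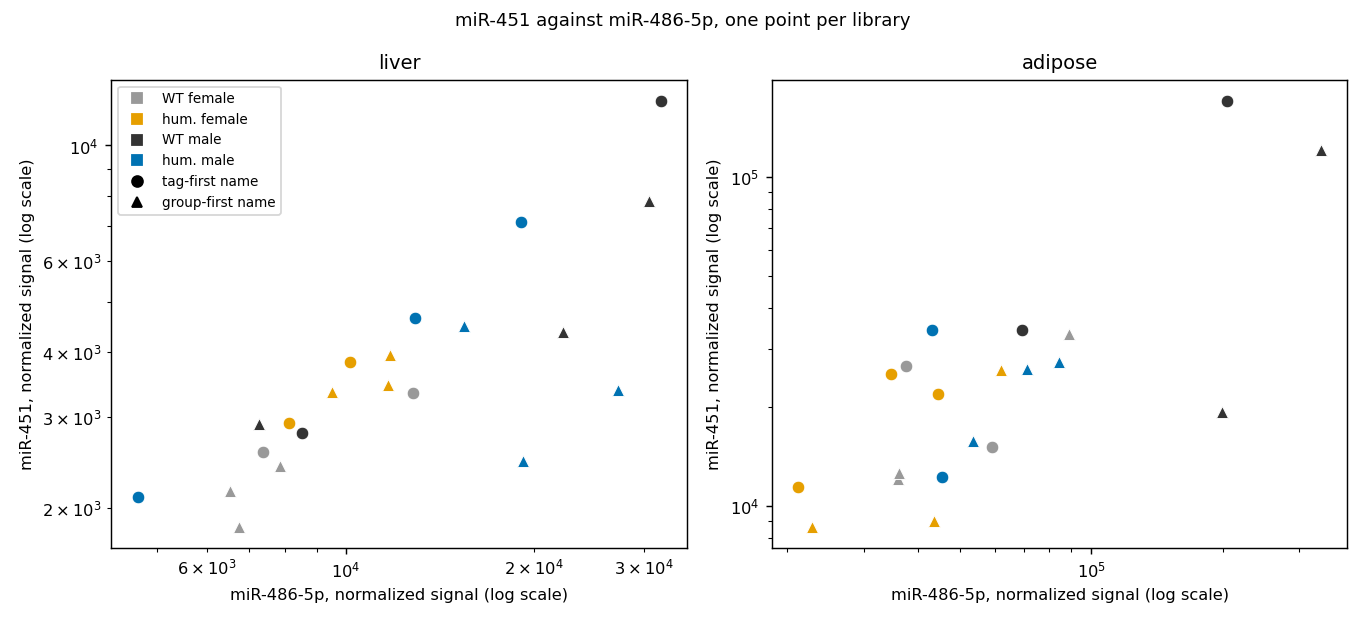
Signal of miR-451 against that of miR-486-5p per small RNA library (log axes) in liver and adipose tissue, coloured by group. The points rise together in both tissues (Pearson r 0.79 and 0.77 on the log2 scale), and WT male replicate 9 in fat lies off the others, with miR-486-5p at 199323 and miR-451 at 19337.

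Library names repeat a tag across the tissues within a group, which gave 18 pairs of a liver and an adipose library, although the labels do not say that a tag is an animal. Over these pairs miR-486-5p in liver and in fat had r = 0.64 (raw permutation p = 0.00397, adjusted p = 0.00496) and rho = 0.45 (adjusted permutation p = 0.0718). Without the farthest 2 pairs r was 0.37 (raw permutation p = 0.162), and without the 4 WT male pairs it was 0.21 (raw permutation p = 0.460), so the relation rested on the WT males.

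The WT male pairs had liver and adipose signals of 31925 and 204380, 8532 and 69218, 22268 and 199323, and 30577 and 336754. The WT male pair with the lowest liver value was thus also the one with the lowest adipose value. Within pairs of the same name form, r was 0.71 over 6 tag-first pairs and 0.78 over 8 group-first pairs. MiR-144-3p had r = 0.62 (raw permutation p = 0.00658, adjusted p = 0.00759) and rho = 0.57 between tissues, 0.57 without the farthest 2 pairs and 0.31 without WT males. MiR-451 had r = 0.51 (adjusted permutation p = 0.0337) but rho = 0.07, and its r was -0.36 without the farthest 2 and -0.34 without WT males. No relation between the tissues therefore held for miR-451 beyond those pairs.

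**Figure D5:**
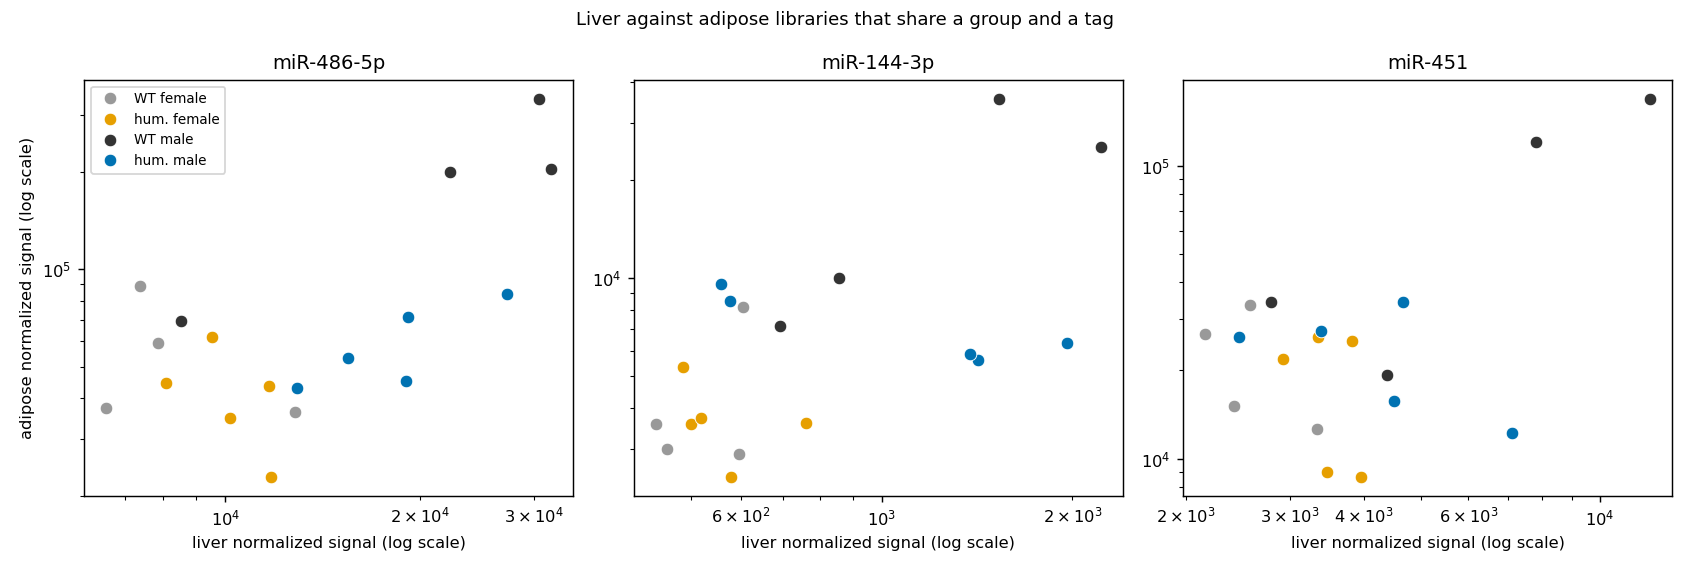
Adipose against liver signal (log axes) of miR-486-5p, miR-144-3p and miR-451 for the 18 pairs of libraries with the same group and tag. All but 1 of the WT male pairs lie at the upper right for miR-486-5p, with liver signal from 22268 to 31925, and the remaining one lies among the other groups at 8532 in liver and 69218 in fat.

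MicroRNAs with the pattern most like miR-486-5p were ranked by the Pearson r of residuals after group and name form, among unshifted features with a mean of at least 100 other than the members. In the 20 adipose libraries (359 ranked) these were miR-25-3p (r = 0.77), miR-106b-3p (0.76), miR-92a-2-3p (0.73), miR-15b-5p (0.71) and miR-25-5p (0.68). In the 21 liver libraries (242 ranked) they were miR-106b-3p (0.85), miR-187-3p (0.74), miR-5117-5p (0.69), miR-1a-2-3p (0.66) and miR-1a-1-3p (0.66). MiR-1a-2-3p (liver signal 89.0 to 2322) and miR-1a-1-3p (89.0 to 2320) are numbered forms of miR-1a, a muscle microRNA. The fixed muscle list did not count them. MiR-106b-3p appears in both tissues. On the same measure miR-144-5p had 0.82, miR-451 0.80, miR-144-3p 0.65 and miR-486-3p 0.52 in liver, the last 2 below the 5 microRNAs named there. In fat miR-486-3p had 0.86, miR-144-5p 0.84, miR-144-3p 0.83 and miR-451 0.68. All these values share the library and its depth, and they are given as a description.

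Listed genes of the microRNA pathway, not all of them processing genes, did not pass between genotypes in males of either tissue. The list of 13 held Drosha and Dgcr8, which cut the primary transcript, Dicer1, which cuts most hairpins, and Ago2, the protein that cuts the miR-451 hairpin. It also held Xpo5, Tarbp2, Prkra, the other Ago genes and Tnrc6a, Tnrc6b and Tnrc6c. All 13 were tested, and the median difference of humanized minus WT males was 0.00 in both tissues. Ago2 differed by 0.16 in liver and 0.29 in fat (adjusted p = 0.893 and 0.756 from limma), and Dicer1 by -0.16 and -0.19 (0.868 and 0.685). Between the sexes in liver 1 of the 13 passed: Tarbp2, a partner of Dicer1, was higher in males by 0.38 (adjusted p = 0.0321 from limma). Of all genes 9.59% passed there, so 1 of 13 is no more than that share.

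Ank1, the host gene of miR-486, had a signal of 5.45 to 49.9 in liver and 89.6 to 740 in fat, and differed between humanized and WT males by 0.10 and 0.03 (adjusted p = 0.985 and 0.996 from limma). In fat its median was 220 in WT females, 226 in humanized females, 233 in WT males (n = 2) and 303 in humanized males. The highest fat library, at 740, was a WT female one. Whether Ank1 and miR-486 go together was not tested, as these libraries are not tied to those of small RNA. Of 7 genes known from the literature as targets of these microRNAs, none passed between the genotypes in males. Their median difference was 0.09 in liver and -0.23 in fat. Between the sexes in liver their median was 0.01 with 4 of 7 higher, and 1 of 7 passed, beside 9.59% of all genes. It was Foxo1, a transcription factor and target of miR-486, which was lower in males by 0.53 on the log2 scale (adjusted p = 0.0465 from limma).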

How the data were processed

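The authors deposited normalized signal, that is counts divided by a size factor per library, for small RNA and messenger RNA of each tissue. They also deposited batch-corrected regularized log2 values, which served as an alternative. Per the submitters' processing notes STAR, Salmon, DESeq2 and limma were used with build mm9, with roles and versions not given in the sources used here. Each small RNA value was a whole multiple (tolerance 0.01) of the smallest value of its library divided by 10. Each column was tied to a sample by its name, with 0 left unmapped.

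After features with a mean under 10 were dropped, limma (version 3.58.1, run in R 4.3.3, with a mean-dependent prior variance) estimated differences on log2(signal + 1), a scale that understates changes of low features. Each tissue had 1 model for the 4 groups together, with library name form (small RNA) or labelled preparation (liver messenger RNA) as covariate. Benjamini-Hochberg adjustment ran over all features, and a call is an adjusted p under 0.05. The fit was tested on simulated data. Permutations used Python 3.11.15 and scipy 1.17.1. The labels list the libraries of a group as separate samples and do not say that each is another animal, so p-values measure the spread between these samples, which may be technical. Replicate numbers were not taken to pair the samples, by a rule that asked r over 0.1 of every same-numbered pair and would also set aside a partial pairing. For small RNA 6 of 30 liver and 2 of 17 adipose pairs had such r. For messenger RNA 3 of 18 liver and 9 of 15 adipose pairs did (median r 0.15 in the last, against -0.089 for other numbers). The main model of adipose messenger RNA held no term for this. With replicate as a block, its red cell genes had a median of -2.00 in humanized against WT males, with none called.

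The member rule uses names only, but members, lists and tests were chosen with earlier results of these data known. Named features are every member, the 5 features most like miR-486-5p in each tissue, and from each list its defining genes and any gene called. Listed names with no row of that name (such as miR-16-5p and miR-92a-3p) were not counted in the lists. Numbered forms of such names, such as miR-92a-2-3p in the adipose table, were not put in their place.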

Additional observations from a re-analysis of the deposited data

Results flagged for a closer look

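Of 53 tests of the highest and lowest library of a group against the others, 7 singled out a library. Chance does so in about 1 of 20 groups when values are independent and normally distributed. These tests used signal without logs, and related members were tested separately, so that rate is no yardstick for the 7. In adipose WT females replicate 7 stood apart for miR-144-3p, at 8138 against 3654 in the next library, and for miR-486-3p, at 1353 against 648. Its miR-486-5p and miR-451 signals were also the highest of that group. In adipose humanized females replicate 7 stood apart for miR-486-3p, at 1115 against 518. In liver WT females replicate 2 stood apart for miR-486-5p, at 12825 against 7860, and for its twin miR-3107-5p, at 12807 against 7844. In liver WT males replicate 1 stood apart for miR-486-3p, at 321 against 147, and for miR-3107-3p, at 12.6 against 0 in the others. With the others at 0, any value above 0 would have been singled out for miR-3107-3p. Each of these libraries was on the high side. The cause was not tested.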

How the results depend on the processing

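The calls in male fat and in liver lay near the threshold, WT male fat had 4 small RNA and 2 messenger RNA libraries, the floor of 10 reads leaves miR-3107-3p untested in liver, and tests on counts were not run. Members called in humanized against WT male fat fell from 3 to 0 with a pseudocount of 0.1, no filter, trimmed-mean or common-sum scaling, no covariate, either name form alone and the replicate block, and ranged from 0 to 5 without 1 library; over both sexes the range was 0 to 4. Members called between the sexes in fat fell from 6 to 0 within either name form and were 6 to 7 without 1 library. In liver they fell from 1 to 0 with no covariate, in tag-first libraries and with the replicate block, rose to 3 in group-first libraries, and ranged from 0 to 4 without 1 library. With the replicate block miR-3107-3p was also no longer called between the sexes in fat (1.06); it changed no other call. Common-sum scaling moved the median of all features in humanized against WT male fat from 0.04 to 0.16.

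Directions reversed only for uncalled differences. In tag-first libraries of liver, miR-486-5p was -0.10 and miR-144-5p -0.20 in females, miR-486-5p -0.38 and miR-451 -0.15 over both sexes, and miR-486-3p -0.038 between the sexes. In group-first libraries of liver, miR-486-5p was 0.24 in males, miR-486-3p -0.24 in females and 0.16 for genotype by sex, and miR-144-5p 0.12 over both sexes; in female fat miR-144-5p was 0.066. With the replicate block in liver, miR-486-5p was -0.021 and miR-451 -0.023 over both sexes, and miR-486-3p -0.32 between the sexes, where a pseudocount of 0.1 gave -0.22 and trimmed means -0.0091. Without 1 library, liver differences in males ran from -0.52 to 0.12 for miR-486-5p, -1.61 to 0.046 for miR-486-3p and -0.66 to 0.011 for miR-144-5p. In females they ran from -0.17 to 0.48 for miR-486-3p, -0.023 to 0.15 for miR-144-3p and -0.0033 to 0.18 for miR-144-5p. Over both sexes they ran from -0.087 to 0.23 for miR-486-5p, -0.70 to 0.13 for miR-486-3p, -0.25 to 0.017 for miR-144-3p, -0.29 to 0.043 for miR-144-5p and -0.12 to 0.19 for miR-451. Between the sexes miR-486-3p ran from -0.19 to 0.63 and Hba-a2 from -0.049 to 0.45.

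Of the relations in liver, miR-486-5p with miR-486-3p had r = 0.66 in tag-first and 0.13 in group-first libraries and 0.41 without the farthest 2, and miR-486-5p with miR-144-3p had 0.58 in group-first ones. Between the tissues miR-486-5p had 0.71 in tag-first pairs, 0.37 without the farthest 2 and 0.21 without WT males. MiR-144-3p had 0.71 in tag-first and 0.62 in group-first pairs and 0.31 without WT males. MiR-451 had 0.55 and 0.56 in these forms, -0.36 without the farthest 2 and -0.34 without WT males. Leaving out WT males was chosen after seeing the data. The cause was not tested.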
